A study of Mus musculus with 6 samples.

Results

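A set of 8 genes that restrain signalling in B cells was followed in marginal zone (MZ) B cells with and without CD55. Of these, 7 did not separate by genotype beyond the spread between libraries. The libraries of the genotypes lay apart for 1 of the 8, Pirb, and for 14.1% of all tested genes. The split of the 8 is thus near the background. The genes were chosen by name: the inhibitory receptor genes Cd22, Cd72, Siglecg and Pirb, the phosphatase genes Ptpn6 and Inpp5d, the ubiquitin ligase gene Cblb and the adaptor gene Dok3. They are 8 of 55487 genes in the deposited table, and all 8 were among the 13794 genes with enough counts to be tested. The material was RNA of MZ B cells, which were enriched by negative selection for B cells and then flow-sorted, from 14-week-old animals. CD55KO mice, which lack the complement regulator CD55 (decay-accelerating factor), gave 3 libraries and WT C57BL/6 mice gave 3. The sources used here name neither the deleted part of Cd55 nor the background strain of the CD55KO mice, and they leave unsaid whether each library was from a mouse of its own. All p-values therefore reflect the spread among these 6 libraries and may cover technical variation alone. The comparison asks how the loss of CD55 bears on gene expression in this cell type.

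A B cell that binds antigen through its receptor also sets off its own brakes. The SRC-family kinase LYN phosphorylates tyrosines in the tails of inhibitory receptors, within short motifs called ITIMs (immunoreceptor tyrosine-based inhibitory motifs), and these recruit the phosphatase SHP-1, which removes phosphates from signalling proteins, or the lipid phosphatase SHIP-1, which degrades the membrane lipid that phosphoinositide 3-kinase makes. CBL-B marks activated signalling proteins with ubiquitin, and DOK-3 is an adaptor that brings inhibitory enzymes to the membrane. MZ B cells respond quickly to blood-borne antigen, and inhibitory receptors are known to set the strength of B cell responses.

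The libraries held 20056111 to 30784090 counts. Cd55 had 8.95, 6.23 and 7.42 CPM (counts scaled to a common library size, with TMM factors that correct for composition) in CD55KO replicates 1 to 3, against 125, 119 and 110 CPM in WT replicates 1 to 3. All 5 pan-B-cell markers and all 7 MZ B cell markers were detected, and none of the 12 passed the test. Over all tested genes 0.399% passed, so this count is near the background. The 5 follicular B cell markers summed to 2091 to 2337 CPM in CD55KO libraries and 1904 to 2099 CPM in WT, and none passed. Among them Ighd had 539 to 711 CPM in CD55KO libraries and 468 to 511 CPM in WT, without overlap, and the other follicular markers overlapped. WT replicate 1, the library with the fewest counts, was set apart by principal component 1, which held 28.8% of the variance. Erythroid transcripts varied widely within both genotypes, from 35.5 to 1980 CPM in CD55KO libraries and from 105 to 4326 CPM in WT, summed over 5 genes. Plasma cell markers summed to 143 to 160 CPM in CD55KO libraries and 173 to 231 CPM in WT, with Xbp1 lower in CD55KO by the test (edgeR adjusted p = 0.00471), and germinal centre markers to 28.3 to 38.2 CPM in CD55KO libraries and 32.5 to 83.8 CPM in WT, with Gcsam lower (edgeR adjusted p = 0.0343). These 2 genes are named because they were the called members of their lists. Not every listed gene was lower in CD55KO. Irf4, of the plasma cell list, had 55.1 to 64.2 CPM in CD55KO libraries and 49.1 to 62.6 CPM in WT. Fas, of the germinal centre list, had 10.1 to 11.6 CPM in CD55KO libraries and 8.17 to 12.6 CPM in WT. The other genes of both lists had lower means in CD55KO. The part of these markers in the results was not tested.

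Pirb was the 1 gene of the 8 whose CD55KO libraries all lay above the WT libraries. It belongs to a cluster of genes on chromosome 7 that share part of their sequence, the paired immunoglobulin-like receptors. In it Pirb encodes the inhibitory receptor PIR-B and the Pira genes encode activating partners. Sequences upstream of Pirb and Pira2 are shown because both genes had higher mean levels in CD55KO and their upstream sequences are close copies. They are the 250 bases before the transcription start in RefSeq (GRCm38.p6), on the minus strand, at chr7:3720383-3720632 for Pirb and chr7:3845052-3845301 for Pira2. Capitals mark GAGGAA, a purine-rich core of the kind bound by the ETS factor PU.1, and TTCCTC, the same motif on the other strand.
Pirb: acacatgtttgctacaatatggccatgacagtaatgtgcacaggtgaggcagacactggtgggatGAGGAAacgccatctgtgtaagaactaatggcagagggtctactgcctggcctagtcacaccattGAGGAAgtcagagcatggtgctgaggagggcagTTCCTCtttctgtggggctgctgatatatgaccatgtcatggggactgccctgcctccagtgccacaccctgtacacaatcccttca
Pira2: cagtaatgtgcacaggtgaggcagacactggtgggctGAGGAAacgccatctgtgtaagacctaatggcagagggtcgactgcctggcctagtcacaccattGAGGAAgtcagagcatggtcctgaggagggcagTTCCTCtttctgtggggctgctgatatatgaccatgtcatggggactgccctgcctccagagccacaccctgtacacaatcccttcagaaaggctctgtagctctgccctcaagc

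The upstream sequences of the cluster were close copies. In the 300-base windows from 250 bases before to 50 bases after the start, Pirb and Pira2 matched over 272 aligned bases at 97.1% identity, Pirb and Pira1 over 300 bases at 97.3%, and Pirb and Lilra6 over 270 bases at 95.9%. The motif GAGGAA occurred 3 times, on either strand and without overlap, in each of the 4 windows. As close copies, the 4 windows are not separate observations of the motif. At least 1 match was found in 28.3% of the 32851 RefSeq promoter windows of that length, and 3 or more in 0.685%. Of the 8 genes studied, all of which had a RefSeq window, 5 held the motif in at least 1 window. Siglecg had a window with 2 matches and another with 0, so this count per gene does not compare with the share per window. A match describes the letters and does not show that a factor binds there.

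Pirb (ENSMUSG00000058818, chr7:3711409-3720391, minus strand, GENCODE M21 on GRCm38) had 47.5, 47.1 and 48.1 CPM in CD55KO replicates 1 to 3, against 31.9, 39.1 and 35.9 CPM in WT replicates 1 to 3. The CD55KO libraries lay close together, and the lowest of them was above the highest WT library. Such a separation, with CD55KO above WT, was seen for 7.24% of all tested genes, and one with CD55KO below WT for 6.84%. The mean was 47.6 ± 0.50 CPM in CD55KO libraries and 35.6 ± 3.65 CPM in WT (SD, n = 3 each), a 1.33-fold ratio with a 95% interval of 1.17 to 1.52 (log2 fold change 0.41 ± 0.09 SE). By edgeR's quasi-likelihood test with Benjamini-Hochberg adjustment over all genes, Pirb did not pass a threshold of 0.05 (unadjusted p = 0.000306, adjusted p = 0.0681), while the Wald test of DESeq2 called it (adjusted p = 0.0121), where DESeq2 called 0.994% of all genes. Without the count filter edgeR called it too (adjusted p = 0.00185), where 0.977% of genes passed. That fit gave Cd22, Cd72, Siglecg and Ptpn6 the same SE, 0.0942, so it hardly used each gene's own spread between libraries. Leaving out 1 library at a time gave log2 fold changes of 0.34 to 0.49 and edgeR adjusted p-values of 0.0566 to 0.24.

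The activating neighbours of Pirb had higher mean levels in CD55KO too, and none passed its own test. Pira2 had 15.6, 13.9 and 10.9 CPM in CD55KO replicates 1 to 3, against 8.02, 9.90 and 9.56 CPM in WT replicates 1 to 3 (log2 fold change 0.55 ± 0.15 SE, edgeR adjusted p = 0.208, and 0.0306 without the count filter). The fit without the filter hardly used a gene's own spread. The genotypes of Pira2 did not overlap. Gm15922, at the position where RefSeq places Pira1, had 6.16, 8.38 and 7.36 CPM in CD55KO, against 5.10, 4.44 and 4.80 CPM in WT, also without overlap (edgeR adjusted p = 0.24). Lilra6, which RefSeq lists as a Pira gene by an older name, had 5.68, 4.53 and 3.40 CPM in CD55KO, against 2.87, 3.45 and 2.52 CPM in WT, and its genotypes overlapped (edgeR adjusted p = 0.456). The predicted genes Gm14548 and Gm15448 of the same cluster averaged 5.38 ± 1.17 and 2.47 ± 0.32 CPM in CD55KO libraries and 4.35 ± 0.62 and 1.76 ± 0.28 CPM in WT (SD, n = 3 each), with edgeR adjusted p-values of 0.754 and 0.67.

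**Figure D1:**
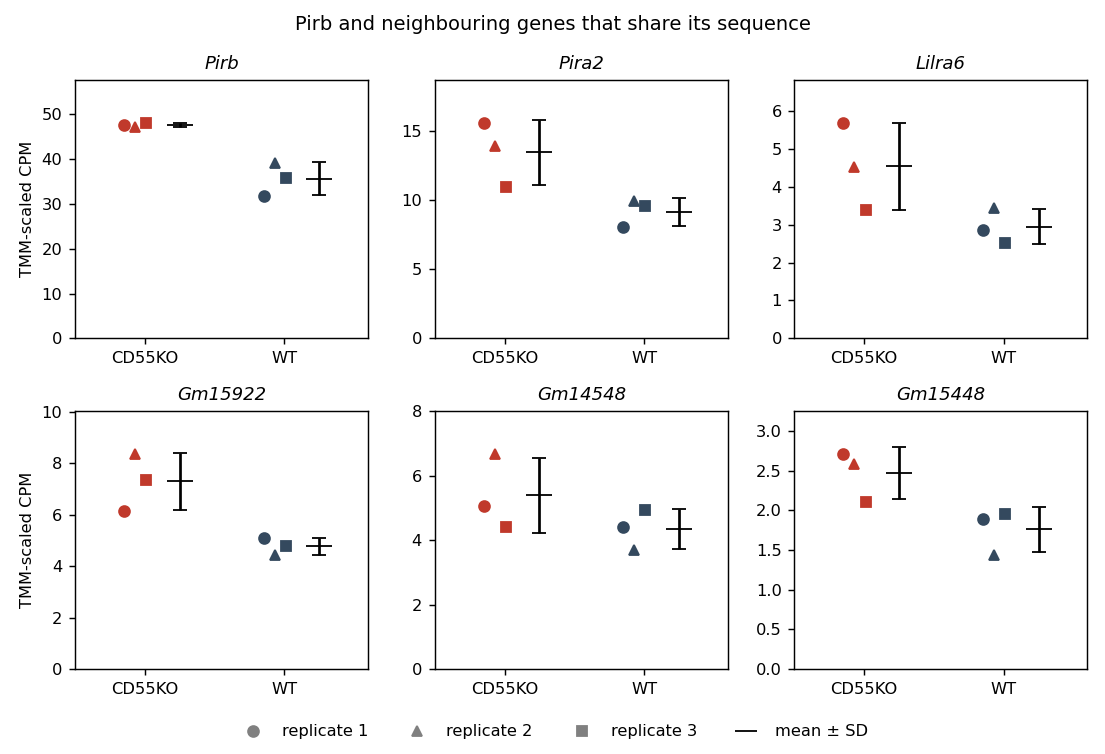
TMM-scaled CPM of Pirb and 5 neighbouring genes that share its sequence, in 3 CD55KO and 3 WT libraries. Symbols mark the replicates, and the bars give the mean ± SD of each genotype. Pirb, Pira2, Gm15922 and Gm15448 have no overlap between genotypes, with CD55KO above WT, as for 7.24% of all tested genes. Reads may be divided among these genes, so they are not separate observations.

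These genes share sequence, so the split of reads among them is uncertain. Of the 50-base windows in Pirb transcripts, 34.0% also occur in transcripts of other genes, among them Gm14548 (17.7%), Pira2 (16.8%), Gm15922 (13.2%) and Lilra6. With 100-base windows the share was 20.8%. The deposited counts of Pirb were not whole numbers in any of the 6 libraries. Summing Pirb, Pira2, Lilra6 and Gm15922 removes the division of reads among these 4 genes. The sum had 74.9, 73.9 and 69.8 CPM in CD55KO replicates 1 to 3, against 47.9, 56.9 and 52.8 CPM in WT replicates 1 to 3. The genotypes were well apart, and the sum rose 1.39-fold in CD55KO (95% interval 1.23 to 1.56, log2 fold change 0.47 ± 0.08 SE, edgeR adjusted p = 0.0109, where 0.421% of genes passed). Pirb made up 65.4% of the sum in CD55KO and 67.8% in WT on average, so the higher total did not come with a larger Pirb share. The count of Pirb alone thus missed the threshold and the summed count of the 4 genes passed it in the same test. Reads shared with Gm14548 and the other predicted genes stayed divided in this sum.

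Pirb is also expressed by myeloid cells, so macrophage and monocyte markers are given beside it. Their summed level over 11 genes was 34.9 to 40.8 CPM in CD55KO libraries and 25.4 to 32.0 CPM in WT, and none of the 8 tested members passed the test. Spic, at 10.7 to 13.4 CPM in CD55KO libraries and 6.02 to 8.28 CPM in WT, and Cd68, at 15.3 to 16.8 CPM in CD55KO libraries and 10.7 to 13.2 CPM in WT, made up most of it. For Spic and Cd68 the CD55KO libraries lay above the WT libraries, as for 7.24% of all tested genes, and the other listed genes overlapped. Among those, C1qb had at most 0.917 CPM in CD55KO libraries and 0.874 CPM in WT. Csf1r had 0.455 to 1.39 CPM in CD55KO libraries and 0.782 to 2.19 CPM in WT. Adgre1, which encodes F4/80, had 3.52 to 4.10 CPM in CD55KO libraries and 1.21 to 4.13 CPM in WT, and Lyz2 had at most 1.58 CPM in CD55KO libraries and 1.75 CPM in WT. The 7 neutrophil markers summed to at most 0.147 CPM in CD55KO libraries and 0.640 CPM in WT, with 3 of them at 0 counts in all libraries. The part of these markers in the level of Pirb was not tested. In bulk RNA a change in the number of cells of a type and a change in RNA per cell cannot be told apart.

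The other 3 receptor genes were abundant and did not separate by genotype. None of the 8 genes studied passed an edgeR adjusted p of 0.05, where 0.399% of all tested genes passed (0.138% with CD55KO above WT and 0.261% with CD55KO below), and 1 of the 8, Pirb, had an unadjusted p under 0.05, where 8.6% of all tested genes did. By limma-voom none of the 8 passed either. Cd22 (ENSMUSG00000030577, chr7:30865402-30880342, minus strand) encodes a receptor that binds sialic acid on the same or on neighbouring cells and restrains the B cell receptor. It had 809, 758 and 823 CPM in CD55KO replicates 1 to 3, against 735, 883 and 821 CPM in WT replicates 1 to 3. The WT libraries enclosed the CD55KO libraries, with WT replicate 1 lowest and WT replicate 2 highest. The fitted ratio was 0.980 (95% interval 0.858 to 1.12, edgeR adjusted p = 0.975).

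Siglecg (ENSMUSG00000030468, chr7:43408204-43418358, plus strand) encodes another sialic acid receptor, known as a brake of B-1 cells. It had 856, 663 and 768 CPM in CD55KO replicates 1 to 3, against 747, 989 and 807 CPM in WT replicates 1 to 3. It varied most within a genotype of the 8 genes, with coefficients of variation of 12.6% in CD55KO and 14.9% in WT, and its genotypes overlapped. The fitted ratio was 0.900 (95% interval 0.759 to 1.07, edgeR adjusted p = 0.787), the widest interval among the 7 genes other than Pirb.

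Cd72 (ENSMUSG00000028459, chr4:43446462-43454628, minus strand) encodes a C-type lectin-like receptor that binds the semaphorin CD100 and recruits SHP-1. It had 752, 708 and 789 CPM in CD55KO replicates 1 to 3, against 715, 755 and 758 CPM in WT replicates 1 to 3, and its fitted ratio was 1.01 (95% interval 0.893 to 1.14, edgeR adjusted p = 0.991). The CD55KO libraries enclosed the WT libraries. Tesk1 overlaps Cd72 on the opposite strand, and 36.7% of the 50-base windows of Cd72 transcripts occur in Tesk1 transcripts. Strand is not marked by the library kit, and reads of the overlap could come from either gene. Tesk1 itself was counted at only 3.04 to 3.32 CPM in CD55KO libraries and 2.77 to 3.16 CPM in WT.

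**Figure D2:**
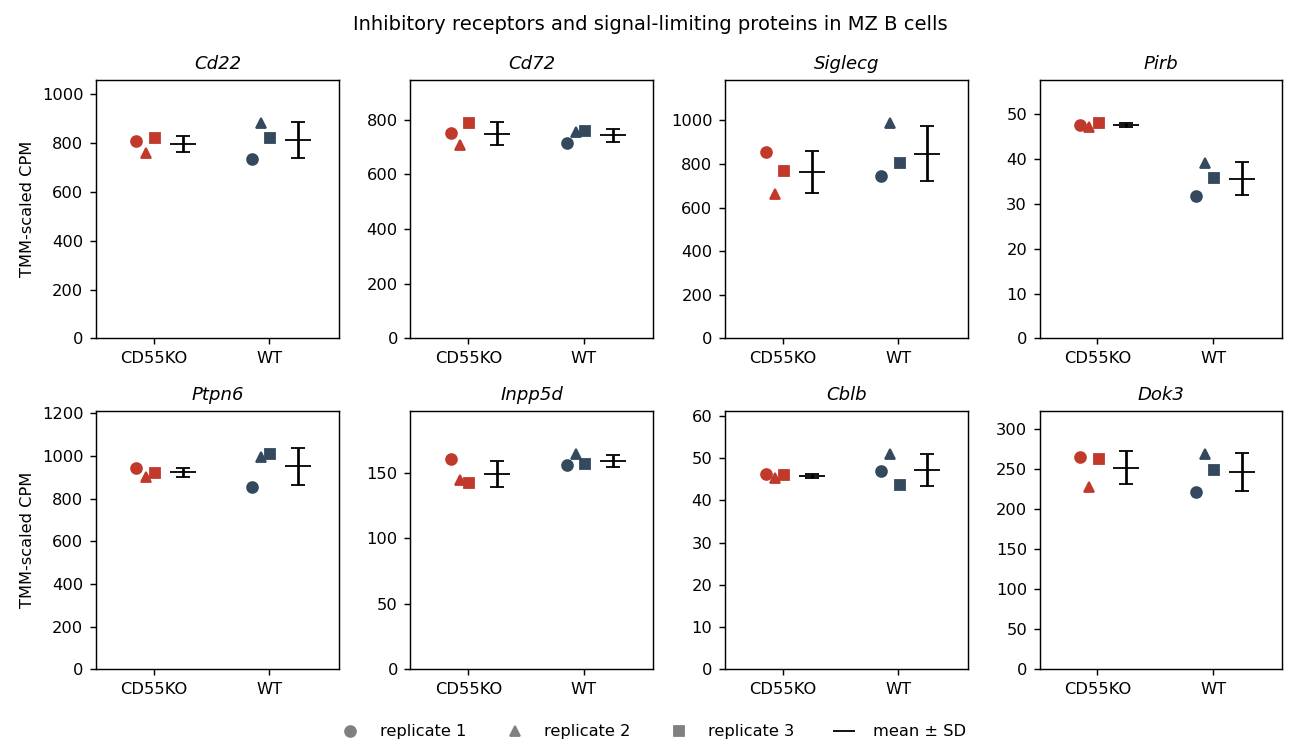
TMM-scaled CPM of each of the 8 genes in 3 CD55KO and 3 WT libraries. Symbols mark the replicates, and the bars give the mean ± SD of each genotype. Pirb, at 47.1 to 48.1 CPM in CD55KO libraries and 31.9 to 39.1 CPM in WT, is the gene without overlap between genotypes.

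Neither phosphatase gene differed beyond the spread of the libraries. Ptpn6 (ENSMUSG00000004266, chr6:124720707-124738714, minus strand), which encodes SHP-1, had 945, 903 and 921 CPM in CD55KO replicates 1 to 3, against 853, 994 and 1011 CPM in WT replicates 1 to 3. As with Cd22, WT replicate 1 was the lowest library and the WT range enclosed the CD55KO range (ratio 0.969, 95% interval 0.850 to 1.10, edgeR adjusted p = 0.943). Inpp5d (ENSMUSG00000026288, chr1:87620312-87720507, plus strand), which encodes SHIP-1, had 160, 144 and 142 CPM in CD55KO replicates 1 to 3, against 156, 164 and 157 CPM in WT replicates 1 to 3. CD55KO replicates 2 and 3 lay below all WT libraries and CD55KO replicate 1 among them (ratio 0.936, 95% interval 0.839 to 1.04, edgeR adjusted p = 0.798). Inpp5d lies on the same chromosome as Cd55, at a distance of 42.7 Mb.

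The ligase and the adaptor gene were likewise at similar means. Cblb (ENSMUSG00000022637, chr16:52031225-52208048, plus strand), which encodes CBL-B, had 46.2, 45.2 and 46.0 CPM in CD55KO replicates 1 to 3, against 47.0, 51.1 and 43.7 CPM in WT replicates 1 to 3 (ratio 0.969, 95% interval 0.856 to 1.10, edgeR adjusted p = 0.939). The CD55KO libraries were close together within the WT range. Dok3 (ENSMUSG00000035711, chr13:55523231-55529296, minus strand), which encodes the adaptor DOK-3, had 265, 227 and 262 CPM in CD55KO replicates 1 to 3, against 221, 269 and 248 CPM in WT replicates 1 to 3 (ratio 1.02, 95% interval 0.893 to 1.17, edgeR adjusted p = 0.972). Its CD55KO range lay inside its WT range.

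Across the 7 genes other than Pirb, the 95% intervals of the ratio reached from 0.759, for Siglecg, to 1.17, for Dok3. A missed threshold does not show that these genes were equal, but ratios beyond those bounds lay outside the interval of every one of the 7. The median log2 fold change of the 8 genes was -0.04, against 0.0015 over all tested genes, and the median size regardless of sign was 0.05 for the 8 genes and 0.12 over all tested genes. The medians of size were not matched for count and do not compare stability. The fewest counts of the 8 genes in a library were 656, while the filter admitted genes from about 10 counts. Of the 8 log2 fold changes, 3 were positive and 5 negative. The sign of the small values had no stability: for Cd22, Cd72, Cblb and Dok3 it turned when some single library was left out. WT replicate 2 was the highest library for 5 of the 8 genes, and WT replicate 1 the lowest for 4.

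**Figure D3:**
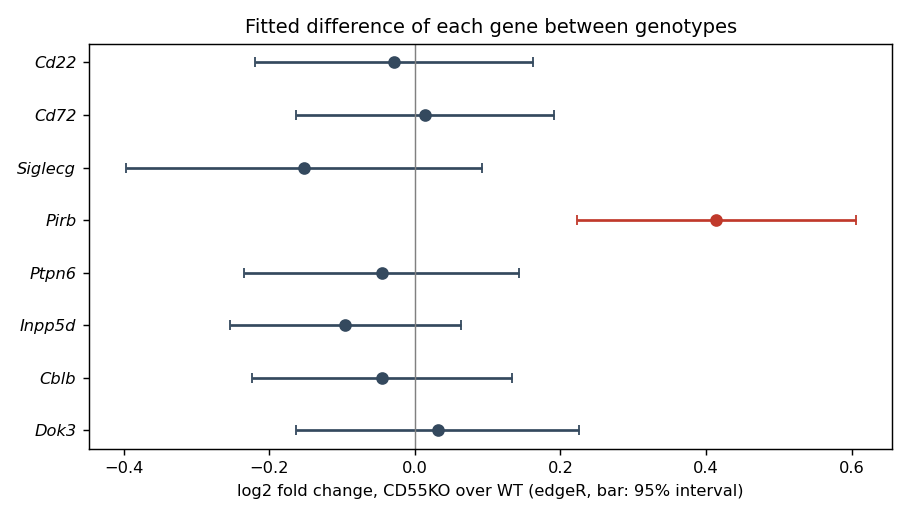
Log2 fold change of CD55KO over WT for each of the 8 genes, from edgeR, with its 95% interval as a horizontal bar. The interval of Pirb, 0.22 to 0.61, lies to the right of 0, and the other 7 intervals include 0.

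Levels of different genes were compared per exon length, as mean CPM per kb of merged exons. The order was the same in CD55KO and WT. Ptpn6 came first with 329 ± 7.52 CPM per kb in CD55KO and 340 ± 31.2 CPM per kb in WT (SD, n = 3 each), followed by Cd72 with 219 ± 11.9 CPM per kb in CD55KO and 217 ± 6.97 CPM per kb in WT. Siglecg, with 159 ± 20.1 CPM per kb in CD55KO and 176 ± 26.3 CPM per kb in WT, and Cd22, with 158 ± 6.76 CPM per kb in CD55KO and 161 ± 14.8 CPM per kb in WT, were the 1 neighbouring pair whose libraries overlapped in both genotypes. Dok3 followed with 92.5 to 108 CPM per kb in CD55KO and 89.8 to 109 CPM per kb in WT. Inpp5d, Pirb and Cblb were lower, with 19.6 ± 1.32, 10.6 ± 0.11 and 4.37 ± 0.05 CPM per kb in CD55KO and 20.9 ± 0.62, 7.97 ± 0.82 and 4.51 ± 0.35 CPM per kb in WT. Ranked over the 13761 tested genes with a known length, Ptpn6 was within the top 1.49%, Cd72, Siglecg and Cd22 within the top 2.62%, Dok3 within the top 4.11%, and Cblb within the top 44.4%.

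In these cells each of 4 genes studied was expressed above its closest relatives per exon length. Ptpn6 exceeded Ptpn11, which encodes the related phosphatase SHP-2, 140-fold to 172-fold in the CD55KO libraries and 125-fold to 177-fold in the WT libraries. Inpp5d exceeded Inppl1, which encodes SHIP-2, 56.6-fold to 96.9-fold in CD55KO and 68.8-fold to 81.8-fold in WT. Cblb exceeded Cbl 2.08-fold to 2.22-fold in CD55KO and 2.03-fold to 2.27-fold in WT. Dok3 exceeded Dok1 2.02-fold to 2.59-fold in CD55KO and 2.25-fold to 2.74-fold in WT, and Dok2 20.1-fold to 26.9-fold in CD55KO and 19.4-fold to 33.2-fold in WT. The ranges of the genotypes overlapped for all 5 ratios.

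**Figure D4:**
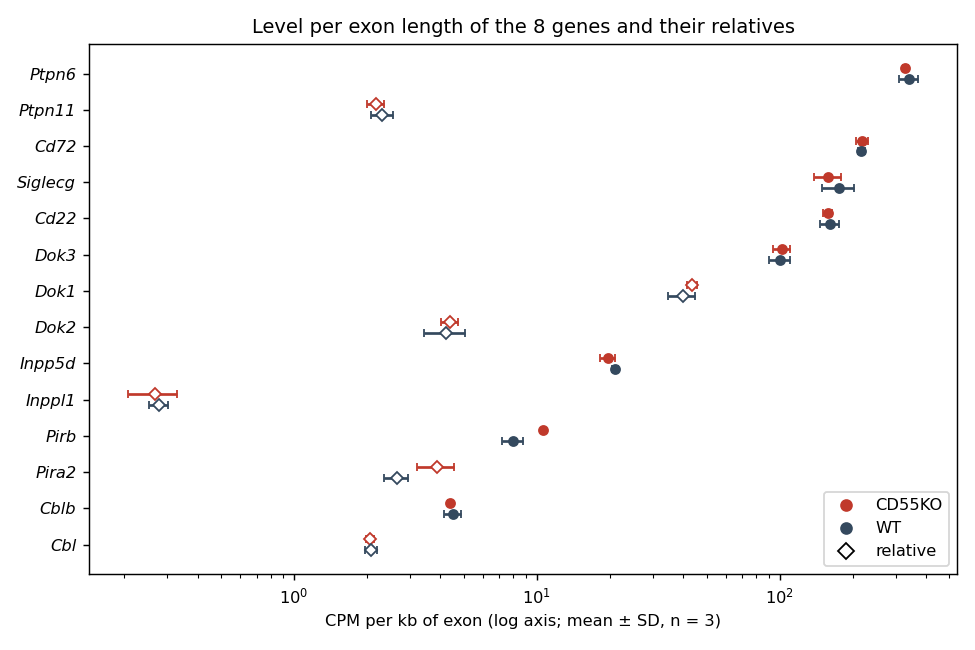
Level per exon length (CPM per kb, log axis) of the 8 genes, drawn as filled circles, and of 6 relatives, drawn as open diamonds, as mean ± SD over 3 libraries of each genotype, with CD55KO above WT in each row. Ptpn6 is highest at 329 CPM per kb in CD55KO and 340 CPM per kb in WT.

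A wider set of negative regulators was examined in the same fit. Of 66 other genes that limit B cell signalling, 53 were tested and none passed by edgeR or limma-voom, while DESeq2 called 2, Cd300lf and Rasal3. Over all tested genes 0.399% passed by edgeR, 0.399% by limma-voom and 0.994% by DESeq2, so a count of 0 by edgeR or limma-voom is near the background. An unadjusted edgeR p under 0.05 was found for 5, with CD55KO above WT in 3 and below WT in 2, where 4.3% of all tested genes were higher and 4.3% lower at that level. The median log2 fold change of the 53 was 0.03. The 13 genes not tested had at most 0.607 CPM in any library, and they include the receptor genes Pdcd1, Ctla4, Lag3, Tigit, Cd200r1, Siglece and Cd300a.

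Among 11 tested ITIM receptor genes outside the 8, Cd300lf and Btla had the smallest p-values, both with CD55KO means above WT. Cd300lf, which encodes an inhibitory receptor for lipids of dying cells, had 54.7, 49.4 and 46.9 CPM in CD55KO replicates 1 to 3, against 37.2, 31.7 and 43.4 CPM in WT replicates 1 to 3, without overlap (log2 fold change 0.43 ± 0.11 SE, edgeR adjusted p = 0.138, DESeq2 adjusted p = 0.0485). Btla, which encodes a receptor for the TNF-receptor family member HVEM, had 155, 120 and 139 CPM in CD55KO, against 106, 121 and 108 CPM in WT, with CD55KO replicate 2 inside the WT range (log2 fold change 0.30 ± 0.09 SE, edgeR adjusted p = 0.264). Fcgr2b, the inhibitory receptor for IgG, had 127 ± 7.85 CPM in CD55KO libraries and 129 ± 11.1 CPM in WT (SD, n = 3 each). It was named after its values were seen.

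Among the kinase genes, Lyn, whose product phosphorylates ITIMs, was also named after its values were seen and had 486 ± 24.0 CPM in CD55KO libraries and 489 ± 28.0 CPM in WT (SD, n = 3 each). Fgr, which encodes another SRC-family kinase, had 51.4 ± 4.01 CPM in CD55KO libraries and 44.9 ± 4.61 CPM in WT, with overlap between the genotypes (log2 fold change 0.20 ± 0.09 SE, edgeR adjusted p = 0.589). Among the phosphatase genes, Dusp5 was at low levels, 0.80 ± 0.22 CPM in CD55KO libraries and 1.63 ± 0.25 CPM in WT (edgeR adjusted p = 0.381), and Ptpn22 had 169 ± 14.1 CPM in CD55KO libraries and 149 ± 21.8 CPM in WT (edgeR adjusted p = 0.651).

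Among the ligases and partners, Ubash3b, which encodes a phosphatase that binds CBL proteins, had 13.3 ± 2.07 CPM in CD55KO libraries and 10.3 ± 1.55 CPM in WT (edgeR adjusted p = 0.506), and Tnfaip3, which encodes the NF-kappaB inhibitor A20, had 6.24 ± 0.71 CPM in CD55KO libraries and 7.80 ± 1.39 CPM in WT (edgeR adjusted p = 0.667). In the group of adaptors and lipid kinases, Rasal3, which encodes a RAS GTPase-activating protein, had 35.2, 35.2 and 44.2 CPM in CD55KO replicates 1 to 3, against 67.8, 67.9 and 44.2 CPM in WT replicates 1 to 3. CD55KO replicate 3 and WT replicate 3 were nearly equal and the other libraries far apart. Rasal3 did not pass by edgeR (log2 fold change -0.65 ± 0.18 SE, adjusted p = 0.324) and passed by DESeq2 (adjusted p = 0.00175), and without WT replicate 3 it passed by edgeR as well (log2 fold change -0.83, adjusted p = 0.00225). Pag1, which encodes an adaptor that anchors the kinase CSK, had 27.3 ± 3.76 CPM in CD55KO libraries and 23.9 ± 1.89 CPM in WT (edgeR adjusted p = 0.693).

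**Figure D5:**
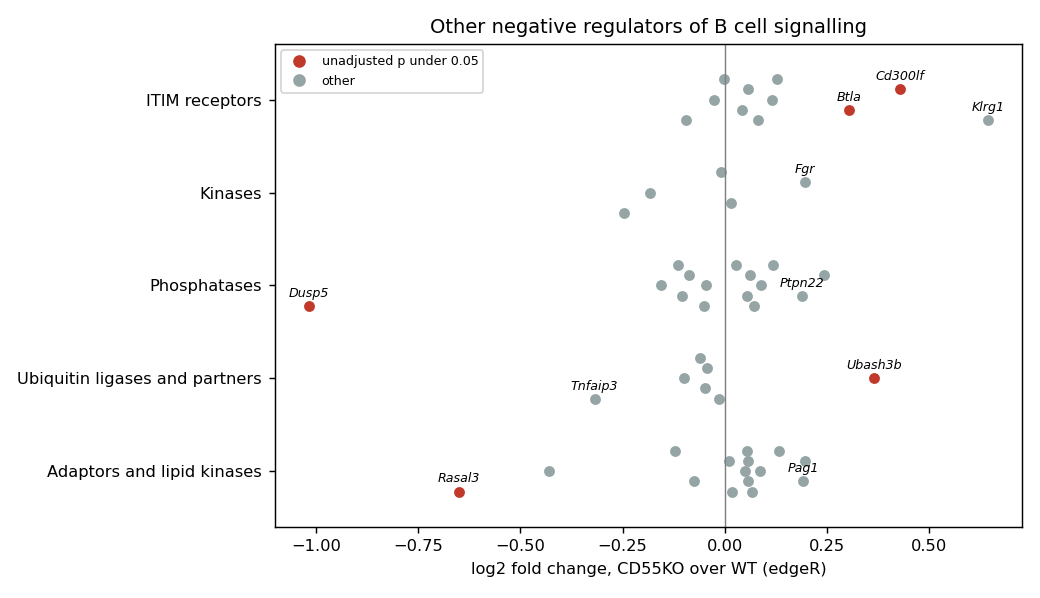
Log2 fold change of CD55KO over WT for 53 other negative regulators in 5 role groups, from edgeR. Each point is a gene, the 5 red points have an unadjusted p under 0.05, and vertical scatter within a group only separates the points.

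Genes of the pathway on which these inhibitors act were examined in the same fit. Of 23 genes of B cell receptor signalling, from the receptor subunits Cd79a and Cd79b to the transcription factor gene Nfatc1, none passed by limma-voom, edgeR or DESeq2, and the unadjusted edgeR p was under 0.05 for 2. These counts are near the background, since 0.399% of all tested genes passed by edgeR and 8.6% had an unadjusted p under 0.05. The 2 genes were Prkcb, a protein kinase C gene, with 87.1 ± 3.18 CPM in CD55KO libraries and 77.2 ± 0.29 CPM in WT (edgeR adjusted p = 0.459), and Itpr1, which encodes a calcium channel of the endoplasmic reticulum, with 33.8 ± 3.86 CPM in CD55KO libraries and 28.8 ± 0.42 CPM in WT (SD, n = 3 each, edgeR adjusted p = 0.501). For both, the CD55KO libraries lay above the WT libraries, as they did for 7.24% of all tested genes. Plcg2, which encodes a phospholipase C, had 111, 117 and 119 CPM in CD55KO replicates 1 to 3, against 128, 127 and 122 CPM in WT replicates 1 to 3 (edgeR adjusted p = 0.678). Its CD55KO libraries lay below the WT libraries, as for 6.84% of all tested genes, and it was named after its values were seen. The 23 log2 fold changes ran from -0.12 to 0.23, with 12 positive and 11 negative.

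Genes with the most similar profile over the 6 libraries were sought for each of the 8 genes among 8534 tested genes with a mean of at least 5 CPM, by Pearson's r of log2 CPM. For Pirb these were Cobll1 (r = 0.989) and Zfp59 (r = 0.988), for Cd22 Limd1 (r = 0.998) and Tm6sf1 (r = 0.993), and for Siglecg Snx20 (r = 0.996) and Phka1 (r = 0.994). For Cd72 they were Fuz (r = 0.970) and Stx4a (r = 0.967), for Ptpn6 AA474408 (r = 0.990) and Mvk (r = 0.988), and for Inpp5d Zswim3 (r = 0.991) and Pus1 (r = 0.989). For Cblb, Zfp866 is given (r = 0.973), and for Dok3 they were mt-Co1 (r = 0.997) and Shoc2 (r = 0.996). With 6 libraries that share their scaling, an r of 0.95 or more was reached by 8 genes, for Cd72, to 30 genes, for Siglecg, and the values are descriptions of these libraries. None of the 8 genes was among the nearest pair of another.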

How the data were processed

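RNA was measured by bulk sequencing in 6 libraries of sorted MZ B cells. Per the labels' protocols, an RNeasy micro kit gave the RNA and a SMARTer Ultra Low kit, which does not mark strand, the libraries. The deposited values are estimated counts per gene, not scaled to a common total, and 30.9 to 31.9% of the values above 0 in each library had a fractional part (tolerance 0.005). Per the submitters' processing notes, DRAGEN, limma and edgeR were used; the sources used here state no version, genome build or annotation.

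The table had 55774 rows for 55487 gene IDs. The 287 repeated rows, with identical values, were removed and counts were rounded. Positions and exon lengths came from GENCODE M21 (GRCm38), in which 99.4% of the IDs were found. The model, with genotype alone, was fitted in edgeR 4.0.16 (R 4.3.3) after filterByExpr (10 counts at least, total of 15 at least), TMM scaling and a robust quasi-likelihood F-test, with Benjamini-Hochberg adjustment over 13794 genes. The threshold was an adjusted p of 0.05. Log2 fold changes are CD55KO over WT. No pair of replicates matched within sampling noise (chi-square over degrees of freedom 14.2 to 36.5).

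The 8 genes, the lists and the naming rule were chosen with earlier results of these data known. Named are the 8 genes and, from each list group, genes past the threshold or else the 2 with the smallest p. Some genes that the rule names are not reported here. Likeness used the 2 highest r per gene, without predicted genes, names ending in Rik and immunoglobulin segments. Alternatives were DESeq2 size factors, library totals, DESeq2 1.42.0, limma-voom (limma 3.58.1), no and a stricter count filter (50 counts in 3 libraries), the replicate block, leaving out immunoglobulin genes, a non-robust fit, leaving out each library and summing Pirb with the Pira genes. The sum with 5 predicted genes was added after seeing the data. Shared windows were counted in GENCODE transcripts on both strands.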

Additional observations from a re-analysis of the deposited data

How the results depend on the processing

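The count of genes past the threshold was 55 in edgeR, 137 with DESeq2, 232 without a count filter, and 37 to 53 when 1 library was left out. Of the 8 genes, 0 passed in edgeR. Pirb passed with DESeq2 (log2 fold change 0.41) and in edgeR without a count filter (0.41, adjusted p = 0.00185). It did not pass by itself under the other settings (log2 fold change 0.34 to 0.49 without 1 library). The summed count of Pirb and the Pira genes passed (0.47). The sum with 5 predicted genes passed as well (0.47, edgeR adjusted p = 0.00796, chosen after seeing the data). These 2 sums are not counts of Pirb alone. The fit without a count filter hardly used each gene's own spread, which limits its calls. Of the other negative regulators, 2 passed with DESeq2 and 2 without a count filter, in each case Cd300lf and Rasal3, and 0 to 1 without 1 library (Rasal3, without WT replicate 3). No signalling gene passed under any setting. Without 1 library the log2 fold change ran from -0.0964 to 0.0351 for Cd22, from -0.0274 to 0.0509 for Cd72, from -0.0998 to 0.0165 for Cblb and from -0.0397 to 0.101 for Dok3, so its sign turned. It ran from -0.24 to -0.03 for Siglecg, from -0.1192 to -0.0011 for Ptpn6 and from -0.15 to -0.07 for Inpp5d, each range spanning more than 1.5 times. The cause was not tested. Scaling by library totals moved no mean level of the 8 genes by 1 SD.

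Deviations from the genotype means correlated at 0.07, -0.12 and 0.17 between libraries of the same replicate number, for numbers 1 to 3. The highest value, 0.174, was that of CD55KO replicate 2 with WT replicate 1, close to the 0.172 of number 3. With 3 libraries a genotype, these values cannot decide whether the numbers pair the libraries. With the replicate block 64 genes passed and Pirb had a log2 fold change of 0.42 (adjusted p = 0.0753). Among the 8 genes the fewest counts in a library were 656, for Pirb in WT replicate 1. The effect of depth on the calls was not tested.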
